A study of Mus musculus with 15 samples.

Results

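The promoters of the cytosolic ribosomal protein genes were followed as a set of genes that every growing cell uses, and as a measure of how many reads stay unconverted where little methylation is present. Members were the autosomal protein-coding genes of GENCODE vM1 whose symbol is Rpl or Rps followed by digits, with an optional a, l, x or p suffix. This gave 72 of 21418 autosomal protein-coding genes, namely 39 large subunit genes, 29 small subunit genes and 4 paralogs with an l suffix (Rpl3l, Rpl10l, Rpl39l and Rps27l). CpGs within 1 kb of any annotated start site of these genes were used where both strands together had at least 10 reads in all 15 libraries. That left 733 of 241527 such autosomal CpGs, in 66 members.

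The assay was reduced representation bisulfite sequencing, in which DNA is cut at CCGG and unmethylated cytosines are converted, so that the share of unconverted reads at a CpG is its methylation level. Each library came from bone marrow cells of C57BL/6 mice, sorted as Lin-cKit+ Sca1- and then by CD34 and Cd16/32. Double mutant cells carried Mx1-cre+;Dnmt3a-/-;Idh2 R140Q and were labelled malignant stem and progenitor cells of the CD34- Cd16/32- gate, the gate of megakaryocyte-erythroid progenitors (MEP), with 3 libraries. Dnmt3a knockout cells were Mx1-cre+;Dnmt3a-/-, Idh2 mutant cells were Mx1-cre-;Dnmt3af/f;Idh2 R140Q, and wild type cells were Mx1-cre+;Dnmt3af/f. Each of these was sorted as MEP and as granulocyte-macrophage progenitors (GMP, CD34+ Cd16/32+), with 2 libraries per group. Mx1-cre, an interferon-inducible Cre, was thus present in every group except the Idh2 mutant ones, and the floxed or deleted Dnmt3a in all 7. The sample titles of knockout and wild type libraries carry GFP, and those of Idh2 mutant and double mutant libraries carry M140 in its place. The titles do not say what GFP stands for. The labels call the libraries biological replicates without saying whether each is a separate animal, so p-values measure the spread between these libraries. The counts hold no direct check of the alleles, and methylation of marker promoters gave no check of the sorts. Of 15 marker genes 6 were measured, and 0 passed between wild type MEP and GMP, where 0% of all promoters did. Among MEP markers, Itga2b lay at 17.6% in wild type MEP and 18.4% in wild type GMP, Tal1 at 3.83% in MEP and 2.94% in GMP, and Zfpm1 at 0.757% in MEP and 0.448% in GMP. Of the GMP markers, Cebpa lay at 0.210% in MEP and 0.258% in GMP, and Prtn3 at 2.31% in MEP and 1.01% in GMP. Kit, a gene of both, lay at 0 in MEP and 0.407% in GMP.

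Ribosomal proteins coat and shape the ribosomal RNA of the large and small subunits, and their genes are among the most active in dividing cells. Their promoters are typically CpG-rich, lack a TATA box and start in a short pyrimidine tract. In human, heterozygous loss of several of them (RPS19, RPL5, RPL11 and RPL26 among others) causes Diamond-Blackfan anaemia, a failure of red cell production, which makes them of interest in erythroid progenitors. Dnmt3a places new DNA methylation, and the product of Idh2 R140Q inhibits the enzymes that remove it.

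Libraries held 19306705 to 35204906 reads summed over listed cytosines, with a median of 30 to 51 reads per common CpG. By this sum, wild type and double mutant libraries were the deepest, at 28001420 to 35204906 reads, and the 8 knockout and Idh2 mutant libraries had 19306705 to 26086791. Chromosome X reads came to 1.17 to 1.47% of autosomal reads in the mutant and knockout libraries and 2.21 to 2.25% in the wild type ones, and chromosome Y reads to 0.0199 to 0.0386% in the mutant and knockout libraries and 0.00540 to 0.00575% in the wild type ones. What these 2 values track cannot be told apart from the genotype in any comparison with wild type.

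Most ribosomal protein promoters carried almost no methylation, but the set defined by symbol and distance alone was not uniformly unmethylated. Averaged over the 7 group means, 37 of the 66 measured members lay under 1%, 13 at 1 to 5%, 8 at 5 to 20% and 8 at 20% or more, with a median of 0.831%. In 36 members every one of the 15 libraries was under 5%. A member had 1 to 38 CpGs (median 9.5). Of the single CpGs, 653 (89.1%) averaged under 5%, and 132 had no methylated read in any library. The 6 members without a common CpG were Rpl8, Rpl17, Rpl27a, Rpl37a, Rpl39l and Rps27, and 4 more had only 1 or 2 (Rpl3l, Rpl22, Rpl29 and Rps28), which left 62 for tests.

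The lowest members were large and small subunit genes alike. Rpl32 averaged 0.0980% over its 6 CpGs, and 13 of 15 libraries had no methylated read there, the exceptions being an Idh2 mutant MEP library at 0.83% and a wild type GMP library at 0.542%. Rpl37 followed at 0.155% over 11 CpGs, Rpl14 at 0.170% over 3, Rps14 at 0.172% over 6 and Rps27l at 0.179% over 3. Rps14, whose human counterpart lies in the region lost in a myelodysplastic syndrome with anaemia, had at most 1.68% in any library. Rps27l, the paralog that is broadly expressed and induced by p53, had no methylated read in 14 libraries and 2.5% in 1 knockout GMP library. Its level thus resembled those of the subunit genes and not those of the other measured l-suffix paralogs. The places measured were unlike, however. Of the Rps27l CpGs, 1 lies 10 bp past the start, while the others were measured in a coding exon or more than 500 bp past the start.

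Those other paralogs are tissue-restricted and gave high levels in every library. Rpl10l (ENSMUSG00000060499.6), a retrogene expressed in testis, lay at 83.3 to 100% over 3 CpGs in its coding exon. These 3 CpGs have near-identical sequences elsewhere in mm9, so their levels can include reads of a copy. In double mutant MEP Rpl10l averaged 97.0%, against 97.5% in wild type MEP. Rpl3l (ENSMUSG00000002500.8), the heart and skeletal muscle form, lay at 83.5 to 96.8% over 2 CpGs more than 500 bp past its start. At both genes the double mutant libraries overlapped those of each other genotype in MEP.

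Among subunit genes, high averages came from few CpGs, and where these lie sets what they measure. Rpl22 (91.1% over 2 CpGs, 972 and 979 bp upstream) and Rpl21 (74.7% over 3 CpGs, with 2 of them 746 and 772 bp upstream) were measured only far from the start. Rps20 (50.8%) had 4 methylated CpGs 389 to 410 bp past the start, where 2 to 4 near-identical sequences exist elsewhere in mm9. Ribosomal protein genes are known for their many processed pseudogenes, so each CpG was searched for near copies elsewhere in mm9. A near copy was a match of at least 50 bases and 90% identity around the CpG, or a match with up to 2 mismatches over at least 25 of the 30 bases that a read reaches from a CCGG site. The read-length rule was added after the values of Rps19 had been seen. By either rule 150 CpGs in 43 members had a near copy and 583 were single-copy.

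Of the 57 CpGs that averaged 20% or more, 43 had a near copy. Another 2 were the single-copy CpGs of Rpl3l, 11 were single-copy CpGs more than 500 bp from the nearest coding start, and 1 was a single-copy CpG within 500 bp, the Rpl10a CpG 445 bp upstream. CpGs were placed by the protein-coding transcripts of their own member gene alone. Of the 57, 36 lay in coding exons, 5 in untranslated exons, 5 in introns and 11 outside these transcripts. Transcripts of other genes did not enter, and 13 members have the coding start of another gene within 1 kb. Coding exons held 81 of the 733 CpGs, and 70 of these 81 had a near copy, while introns held 318 CpGs of which 18 had one. Levels at near-copy CpGs can include reads of the copy, and the shares of reads from each place were not tested.

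**Figure D1:**
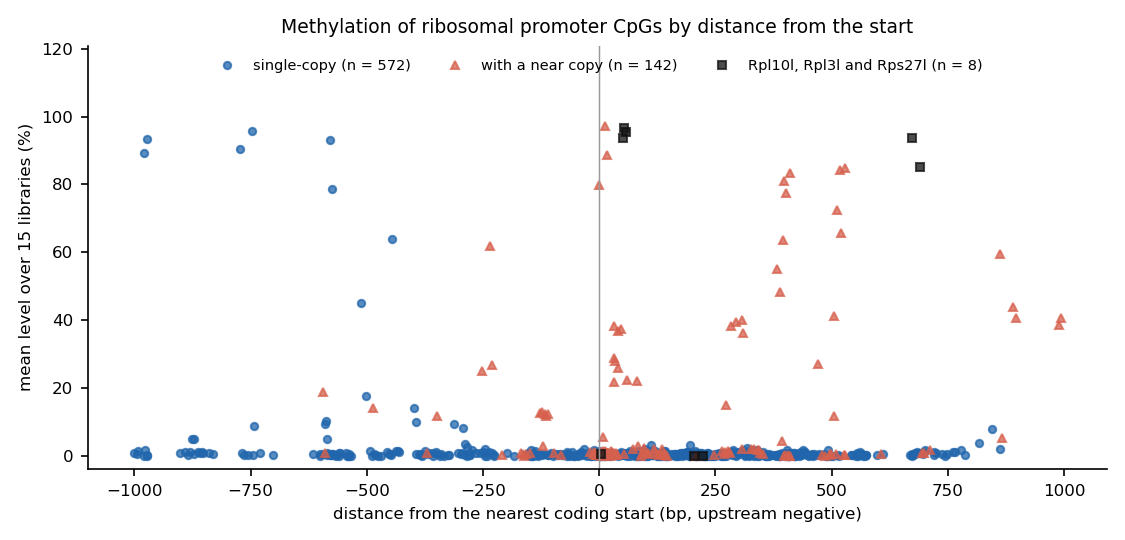
Mean level over the 15 libraries (%, vertical axis) of each ribosomal promoter CpG within 1000 bp of the nearest coding start, against its distance in bp with upstream negative. Circles are single-copy CpGs, triangles CpGs with a near copy elsewhere in mm9 and squares the l-suffix paralogs. Near the start the single-copy CpGs lie close to 0. The high values are near-copy CpGs, those of Rpl10l among them, or CpGs far from the start.

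Rps19, the gene most often mutated in human Diamond-Blackfan anaemia, shows such a place at single-base scale. The stretch of 30 bases at chr7:25669829-25669858 (mm9, plus strand) holds 4 CpGs, in capitals, which lie 441, 455, 458 and 465 bp past the first coding start.
Rps19 stretch: ccCGgacatgcctgatCGcCGcaatcCGgg
The CpG at 455 bp lay at 79.4 to 100% in all 15 libraries, the one at 465 bp at 0 in all 15. On the plus strand the CpG at 441 bp was methylated in 122 of 122 double mutant reads and 63 of 63 knockout MEP reads, and on the minus strand in 4 of 20 and 3 of 19. The opposite strands of the same CpG thus gave 100% and 20% in double mutant MEP. All 4 CpGs have 1 or 2 near copies at the length of a read, and of the 4 only the one at 465 bp has a copy by the longer match.

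The single-copy CpGs close to the start served as the floor. These were the 296 CpGs in 45 members that are single-copy, lie within 250 bp of the nearest protein-coding start and belong to no l-suffix paralog, a choice made after the values had been seen. Over 8999 to 19642 reads per library they held 7 to 164 methylated reads. In double mutant MEP the floor was 0.174%, 0.154% and 0.342%. Knockout MEP had 0.636% and 0.452%, Idh2 mutant MEP 0.554% and 0.136%, and wild type MEP 0.128% and 0.190%. Knockout GMP had 0.0512% and 1.04%, Idh2 mutant GMP 1.17% and 0.267%, and wild type GMP 0.227% and 0.199%. The median library stood at 0.227%, and 13 of 15 were under 1%. The pair above 1% were the second knockout GMP library, with a 95% Wilson interval of 0.873 to 1.25%, and the first Idh2 mutant GMP library, with 1.01 to 1.37%. Their partners in the same groups were at 0.0248 to 0.106% and 0.179 to 0.397%, so libraries of 1 group differed by more than counting error. These intervals cover counting error only, since PCR copies of a molecule are counted as reads.

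The floor is an upper limit on unconverted reads at these CpGs, where true methylation and failed conversion cannot be told apart. It is no limit for other templates, since the mitochondrial share of methylated reads, 0.280 to 3.27%, lay above it in all 15 libraries. The raised level of those 2 libraries was spread over the set. Of the 45 promoters, 13 had no methylated read in each of the 2 libraries, against 23 to 39 in the others, and the median promoter stood at 0.679% in the second knockout GMP library and 1.29% in the first Idh2 mutant GMP library, against 0 in each of the other 13. In the second Idh2 mutant MEP library, Rps6, the small subunit protein phosphorylated downstream of mTOR, gave 16 of the 23 methylated reads, at 2 neighbouring CpGs that each stood at 14.3%.

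Group means of the floor were 0.223 ± 0.103% in double mutant MEP (SD, n = 3), and, with n = 2 each, 0.544 ± 0.131% in knockout MEP, 0.345 ± 0.295% in Idh2 mutant MEP and 0.159 ± 0.0436% in wild type MEP. In GMP they were 0.548 ± 0.702%, 0.720 ± 0.641% and 0.213 ± 0.0199% in knockout, Idh2 mutant and wild type cells. Libraries did not overlap between double mutant and knockout MEP (difference of -0.321 points), knockout and wild type MEP (0.385), Idh2 mutant and wild type GMP (0.506) and wild type MEP and GMP (-0.0543). The other 6 comparisons overlapped. Without the first Idh2 mutant GMP library the difference of 0.506 points was 0.0533. Floor CpGs inside CCGG (92) ran from 0.0848 to 1.62% and those outside (204) from 0.0335 to 1.03%, and the level inside was higher in 13 of 15 libraries. Mitochondrial DNA, which is another low-methylation template, did not order the libraries in the same way. Wild type GMP had the highest mitochondrial shares of methylated reads, 3.12% and 3.27%, with floors of 0.227% and 0.199%, and the 2 libraries above 1% had 2.77% and 2.43%.

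Taken over all 733 CpGs, levels were well above the floor and libraries of a genotype varied as much as genotypes. Double mutant MEP had 4.77%, 5.32% and 6.05%. Knockout MEP had 3.65% and 5.48%, Idh2 mutant MEP 5.12% and 3.99%, and wild type MEP 5.22% and 5.32%. In GMP the values were 4.12% and 5.82% in knockout, 5.72% and 5.46% in Idh2 mutant and 5.31% and 5.65% in wild type cells. Double mutant and wild type MEP averaged 5.38 ± 0.642% (SD, n = 3) and 5.27 ± 0.0668% (n = 2), and their libraries overlapped. The near-copy CpGs alone lay at 15.4%, 18.0% and 19.9% in double mutant MEP, 11.9% and 18.1% in knockout MEP, 16.2% and 15% in Idh2 mutant MEP, and 18.1% and 18.4% in wild type MEP. Without overlap stood only Idh2 mutant against wild type MEP (-0.712 points over all 733 CpGs) and Idh2 mutant MEP against Idh2 mutant GMP (-1.03), of the 10 comparisons made. The first of these was 0.159 points with every CpG weighted equally and 0.186 on the floor CpGs, so its direction depended on the weighting.

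**Figure D2:**
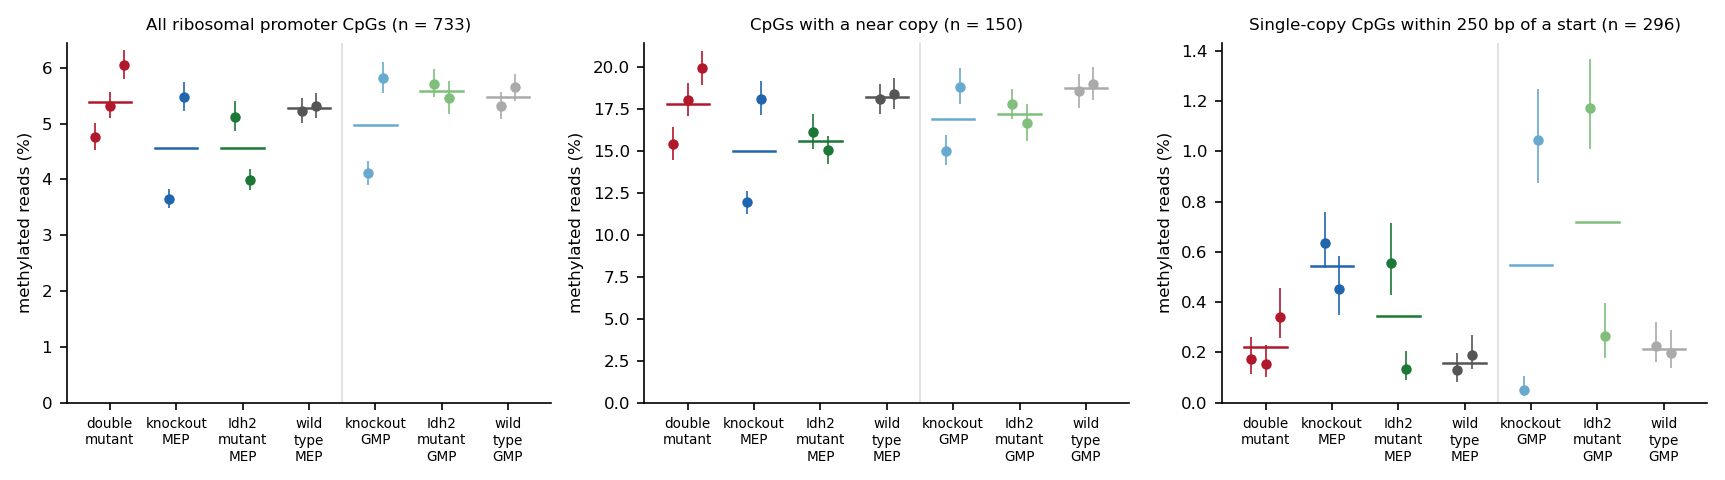
Methylated reads (% of reads) in each of the 15 libraries for all 733 ribosomal promoter CpGs, the 150 with a near copy and the 296 single-copy CpGs within 250 bp of a start. Points are libraries with 95% Wilson intervals and bars are group means. The 2 libraries above 1% in the last panel are a knockout GMP and an Idh2 mutant GMP library, while all 15 lie above 3% in the first.

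Near start sites the ribosomal promoters had about the same levels in double mutant and wild type MEP, while the average of other promoters was higher in double mutant MEP. Within 250 bp of the start, the 36 members with enough single-copy CpGs differed by 0.0509 points on average between double mutant and wild type MEP, and none differed by 5 points or more. Over the 7601 other promoters the mean difference was 2.96 points, and 1140 (15%) were higher by 5 points or more. Most other promoters with gains did not start as low. Among those under 1% in wild type GMP, a group not used in the contrast, the mean difference was 0.805 points (median 0.0790) over 5751 other promoters, against 0.0509 (median 0) over the 36. Of the 5751, 240 (4.17%) gained 5 points or more in double mutant over wild type MEP, and 0 of the 36 ribosomal ones did. A share of 4.17% is fewer than 2 promoters in 36, so this count sets the ribosomal promoters apart from no others that start low. In knockout over wild type MEP the same count was 13 of 5751 (0.226%) and in Idh2 mutant over wild type MEP 14 (0.243%), again with 0 of 36 ribosomal promoters. Near copies were taken out of the ribosomal promoters alone. At these single-copy CpGs near the start, the only 1 of the 36 members above 5% in any library was Rpl19. It had 5.56% in the second knockout GMP library.

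Subtracting the floor left the double mutant difference from wild type MEP almost as it was and moved smaller ones, some of which rested on 1 library. The mean core level of other promoters in double mutant MEP was 6.48%, 7.19% and 6.59%, against 3.69% and 3.89% in wild type MEP, and the difference of 2.96 points became 2.90. For Idh2 mutant over wild type GMP it was 0.860 points before and 0.353 after. The first Idh2 mutant library carried this change, and without it the values were 0.684 and 0.630. For knockout over wild type MEP it was -0.00899 before and -0.394 after, and for knockout over wild type GMP -0.0852 and -0.419. Without the first knockout MEP library the MEP values were 0.276 and -0.0163, and without the second -0.294 and -0.772. For knockout over wild type GMP they were 0.411 and -0.420 without the first knockout library, and -0.581 and -0.419 without the second. For Idh2 mutant over wild type MEP the values were 0.347 and 0.161, with 0.190 and 0.213 without the first Idh2 mutant library and 0.504 and 0.110 without the second. The floor made up 1.55% of the mean core level of other promoters in the first knockout GMP library and 24.3% in the second. It is pooled over reads, while the core level is a mean over promoters. The floor lay above the median core level of other promoters except in the first and second double mutant and the second knockout MEP libraries. In the first knockout MEP library it was 0.636% against a median of 0.348%. The values after subtraction thus describe means and not the typical promoter.

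Levels differed with distance from the start in both sets of promoters, near copies having been taken out of the ribosomal set alone. From 250 bp upstream to 750 bp downstream, no 250 bp bin of single-copy ribosomal CpGs averaged above 0.286% in double mutant MEP or 0.217% in wild type MEP. In other promoters, the bin of the first 250 bp downstream averaged 6.47% in double mutant and 3.39% in wild type MEP, and the bin from 500 to 750 bp 12.5% and 7.33%. Upstream, ribosomal CpGs reached 11.6% in double mutant and 10.7% in wild type MEP between 500 and 750 bp, and 10.3% and 11.6% beyond 750 bp. A group difference appeared between 250 and 500 bp upstream, where 49 single-copy CpGs averaged 5.96% in double mutant, 3.03% in knockout, 2.01% in Idh2 mutant and 1.61% in wild type MEP. Rpl26 supplied 6 of these CpGs. The other 43 averaged 2.50%, 2.68% and 2.39% in double mutant MEP, against 1.40% and 1.77% in wild type MEP, without overlap. Their mean was 2.52% in double mutant, 3.12% in knockout and 1.95% in Idh2 mutant MEP, so knockout was highest. As shares of reads the same 43 gave 1.76%, 1.16% and 0.926% in double mutant MEP, against 1.44% and 0.991% in wild type MEP, which overlap. Knockout MEP averaged 2.46% by reads. Without Rpl26 the difference between double mutant and wild type MEP thus depended on the weighting.

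**Figure D3:**
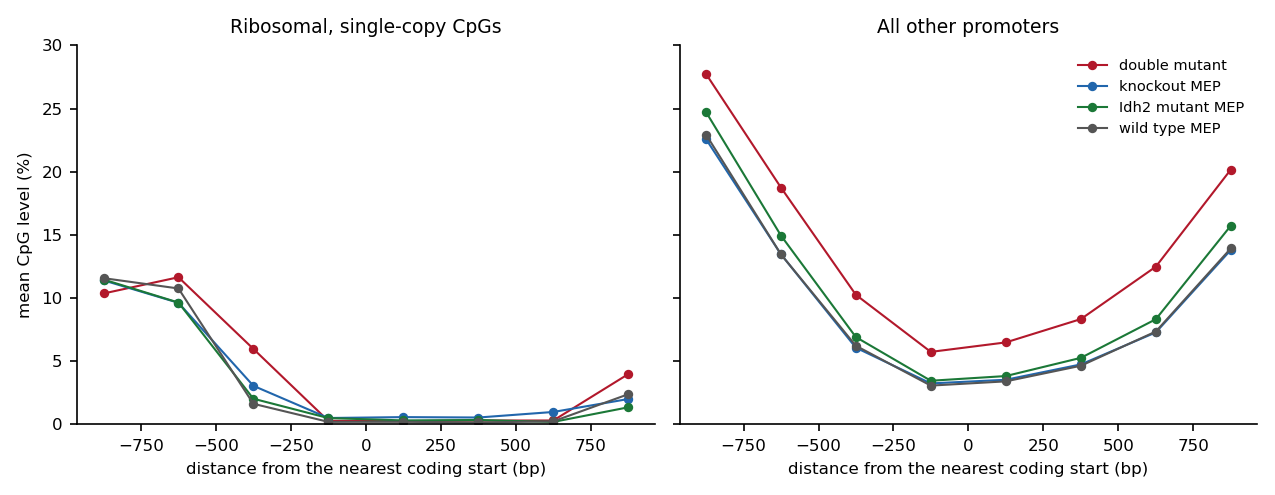
Mean CpG level (%) by distance from the nearest coding start (bp, 250 bp bins) for single-copy ribosomal CpGs and for all other promoters, in double mutant, knockout, Idh2 mutant and wild type MEP. Lines join the bins. Double mutant MEP lies above wild type MEP in every bin of the other promoters, and in ribosomal promoters the gap of 5.96% against 1.61% is in the bin from 250 to 500 bp upstream.

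Tested promoter by promoter over all 10532 promoters with at least 3 CpGs, 3 of 62 ribosomal promoters passed in double mutant against wild type MEP (quasi-binomial test, Benjamini-Hochberg adjusted p under 0.05), where 18.3% of all promoters did. Rpl26 and Rpl38 were higher in double mutant MEP (16.9% of all promoters were) and Rpl35 was lower (1.38%), all of them large subunit genes. None of the 27 tested small subunit genes passed, and of the 13 tested anaemia-linked members Rpl26 did. In this comparison 0 of 10 other ribosome components, 1 of 24 ribosome biogenesis genes, 0 of 25 translation factors and 0 of 52 mitochondrial ribosomal protein genes passed. Of the 10470 other promoters 18.4% did, with a median difference of 0.251 points against 0.0292 points over the 62.

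Rpl26 (ENSMUSG00000060938.8, chr11:68715085-68720491 in mm9, plus strand) encodes a large subunit protein that in human cells also binds the messenger RNA of p53. Over its 27 CpGs it had 7.64%, 8.33% and 8.01% in double mutant MEP. Knockout MEP had 1.73% and 0.603%, Idh2 mutant MEP 1.70% and 1.30%, and wild type MEP 0.847% and 0.777%. No double mutant library overlapped any other library, the GMP ones included. The double mutant mean of 8.0 ± 0.346% (SD, n = 3) exceeded the wild type MEP mean of 0.812 ± 0.0491% (n = 2) by 7.18 points (adjusted p = 5.28e-06, quasi-binomial). It exceeded knockout MEP by 6.83 points (adjusted p = 1.67e-05) and Idh2 mutant MEP by 6.5 points (adjusted p = 4.12e-05). Each of these 3 calls was kept under all 13 alternatives run for it, with a highest adjusted p of 0.00554, 0.00946 and 0.0299.

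The difference lay upstream of the gene, mainly in the 5 farthest of 7 CpGs, while those past the start were near the floor in every MEP group. The 7 CpGs, in capitals, lie 502 to 284 bp upstream in the stretch chr11:68714573-68714811 (mm9, plus strand). No annotated transcript overlaps the stretch, and none of the 7 has a near copy.
Rpl26 upstream stretch: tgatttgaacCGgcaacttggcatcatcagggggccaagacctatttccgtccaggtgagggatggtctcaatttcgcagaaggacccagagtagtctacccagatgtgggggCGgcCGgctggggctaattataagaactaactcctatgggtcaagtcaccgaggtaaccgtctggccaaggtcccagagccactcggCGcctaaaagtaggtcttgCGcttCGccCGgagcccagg
Together they had 33.5%, 35.8% and 29.4% in double mutant MEP, 3.61% and 2.06% in knockout MEP, 4.09% and 3.75% in Idh2 mutant MEP, and 2.37% and 1.69% in wild type MEP. GMP libraries of the 3 other genotypes lay at 0.719 to 5.95%. The mean of 32.9 ± 3.24% (SD, n = 3) in double mutant MEP stood against 2.84 ± 1.10% in knockout, 3.92 ± 0.242% in Idh2 mutant and 2.03 ± 0.480% in wild type MEP (n = 2 each). Within the stretch the level fell off towards the gene. The 5 CpGs farthest upstream averaged 42.7 ± 1.06% in double mutant MEP and 2.24 ± 0.556% in wild type MEP. The CpG at 288 bp had 11.1%, 14.8% and 0% in double mutant MEP and the CpG at 284 bp 7.41%, 7.41% and 2.44%, against at most 2.38% for either in wild type MEP. At these 2 CpGs the double mutant libraries overlapped others, with 2.70% and 8.64% in Idh2 mutant MEP at 284 bp and 12.5% and 6.25% in Idh2 mutant GMP at 288 bp. The other 20 CpGs, 40 to 432 bp past the start, were at 0.136 ± 0.135% in double mutant MEP and 0.380 ± 0.129% in wild type MEP. That is close to the floor, which itself includes CpGs of Rpl26 near the start.

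**Figure D4:**
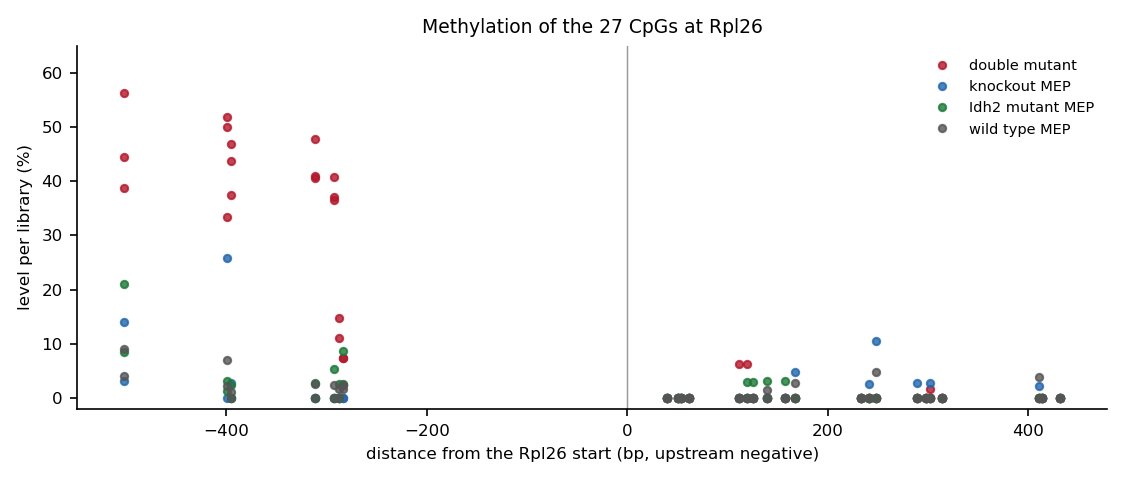
Level of each of the 27 Rpl26 CpGs (%, vertical axis) against its distance from the start (bp, upstream negative), 1 point per library, in double mutant, knockout, Idh2 mutant and wild type MEP. The 5 CpGs farthest upstream average 42.7% in double mutant MEP and 2.24% in wild type MEP, and from 40 bp past the start the groups lie together near 0.

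Rpl38 (ENSMUSG00000057322.6), which in mouse embryos is needed for translation of a subset of Hox messenger RNAs, had 9.26%, 6.41% and 6.65% in double mutant MEP and 1.97% and 0.853% in wild type MEP. Knockout and Idh2 mutant MEP lay at 0 to 1.30%. The difference from wild type MEP was 6.03 points (adjusted p = 0.00376), from knockout MEP 6.51 points (adjusted p = 0.00619) and from Idh2 mutant MEP 6.79 points (adjusted p = 0.00433, all quasi-binomial). A single CpG carried it, the one 348 bp upstream. That CpG had 46.9%, 32.1% and 33.0% in double mutant MEP, 4.65% and 7.32% in knockout MEP, 1.92% and 0% in Idh2 mutant MEP, and 8.77% and 4.49% in wild type MEP, without overlap. It also has 51861 near copies in mm9, as an interspersed repeat would, so which copies its reads came from is not known. Without its near-copy CpGs, Rpl38 differed between double mutant and wild type MEP by -0.151 points (adjusted p = 0.714, quasi-binomial). The call was also lost without the second wild type MEP library and by limma.

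Rpl35 (ENSMUSG00000062997.6), a protein near the exit of the nascent peptide tunnel, fell. It had 5.37%, 13.5% and 12.6% in double mutant MEP against 19.4% and 23.2% in wild type MEP, a difference of -10.8 points (adjusted p = 0.0441, quasi-binomial). Here too 1 CpG held the signal, a single-copy one 513 bp upstream. It had 41.4%, 47.3% and 39.4% in double mutant MEP, 39.7% and 36.8% in knockout MEP, 15.6% and 37.7% in Idh2 mutant MEP, and 69.2% and 72.1% in wild type MEP. The wild type GMP libraries, at 70.2% and 56.4%, were high as well, whereas knockout GMP had 42.6% and 34.5% and Idh2 mutant GMP 8.26% and 63.4%. Double mutant and knockout libraries all lay under 48% and both wild type MEP libraries above 69%. The promoter level pools reads, so it also depends on the share of reads at this CpG. In the first double mutant library the promoter was lowest, at 5.37%, while this CpG stood at 41.4%, above the 39.4% of the third. The part of that share in the difference was not tested. The call was lost under 5 of 13 alternatives and turned to 0.118 points (adjusted p = 0.802) within 500 bp of start sites, which leaves the CpG out. It was lost without the first double mutant library and without either wild type MEP library (highest adjusted p = 0.274).

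One more CpG stood out near a start, though its promoter did not pass the test. Rpl10a, a large subunit protein whose presence varies between ribosomes in mouse stem cells, has a single-copy CpG 445 bp upstream that was chosen here after its values were seen. It lay at 95.5%, 100% and 90.9% in double mutant MEP, 72.2% and 48.9% in knockout MEP, 64% and 75% in Idh2 mutant MEP, and 53.3% and 47.8% in wild type MEP. The 3 double mutant libraries were above all 12 others, of which the highest stood at 75%. The strands behind these values differed by group. On the plus strand 41 of 43 reads were methylated in double mutant, 5 of 13 in knockout, 7 of 7 in Idh2 mutant and 25 of 50 in wild type MEP. On the minus strand there were 6 of 6, 44 of 70, 39 of 58 and 10 of 18. The part of the strand mix in the difference was not tested. Over all 31 CpGs Rpl10a averaged 1.81% in double mutant and 1.42% in wild type MEP.

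**Figure D5:**
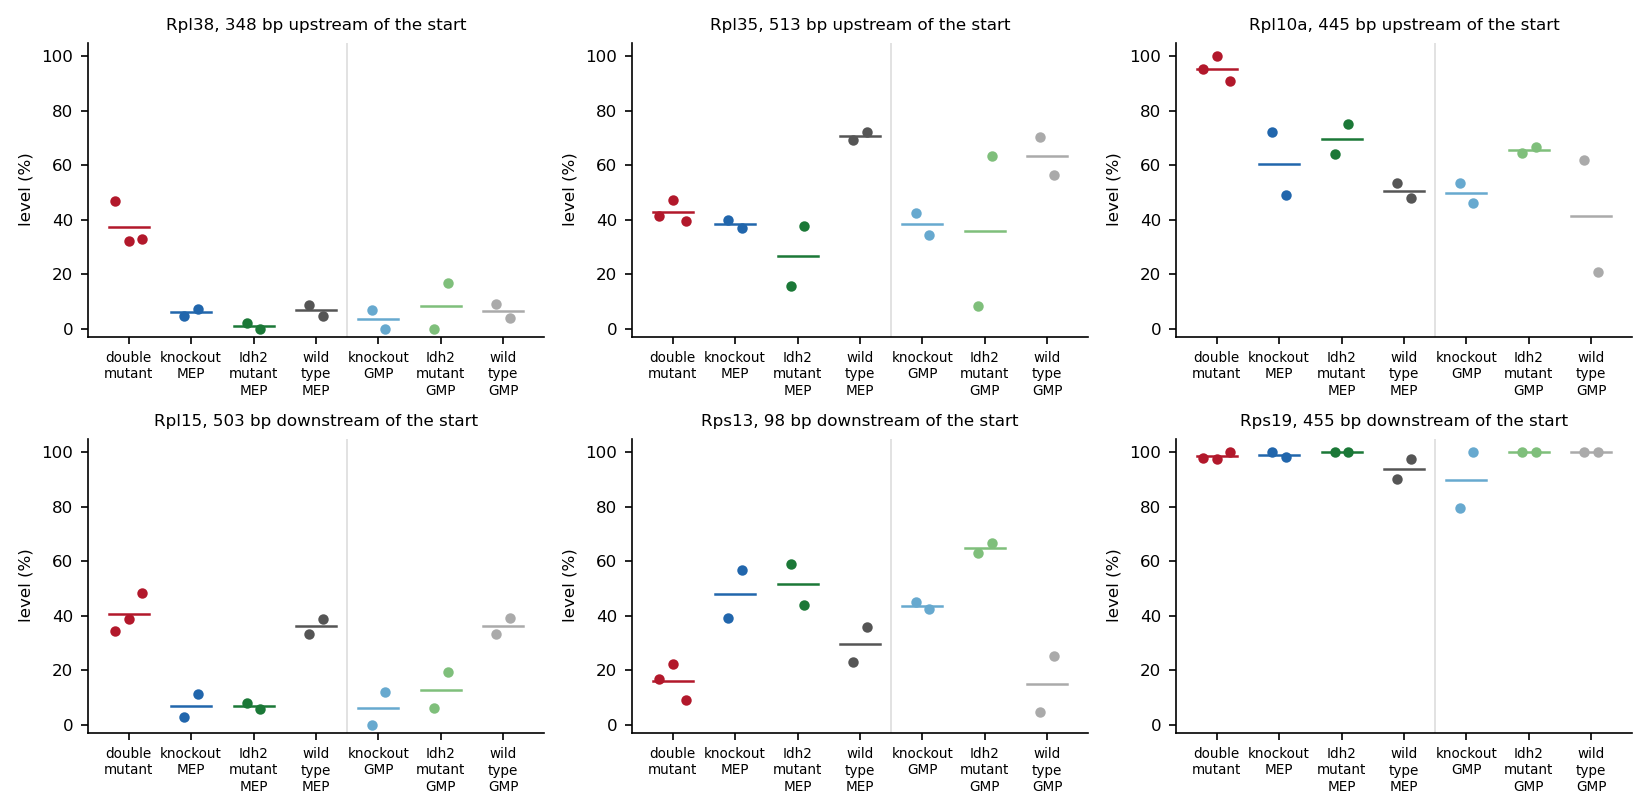
Level (%) of 1 CpG each of Rpl38, Rpl35, Rpl10a, Rpl15, Rps13 and Rps19 in every library, by group, with the group mean as a bar and the distance from the first coding start in the title. At Rpl38 and Rpl10a the double mutant libraries lie above all others in MEP, at Rpl15 and Rps13 the double mutant and wild type libraries lie apart from those of knockout and Idh2 mutant cells in MEP, and at Rps19 all libraries are high.

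The genes tied in human to Diamond-Blackfan anaemia or to related marrow failure ranged from the level of the floor to well above it. Apart from Rpl26, none of the 13 tested passed in double mutant against wild type MEP. Rpl5, which binds Rpl11, had 0.415 ± 0.226% in double mutant MEP and 0.155 ± 0.219% in wild type MEP over 14 single-copy CpGs (SD, n = 3 and 2, as in the following values). Rps24 had no methylated read in either group, and Rps7 had 0.272 ± 0.240% in double mutant MEP and 0 in wild type MEP. These promoters lay at the level of the floor, a set that itself includes CpGs of Rpl5 and is thus no independent measure. The methylated ones were mostly measured at near-copy CpGs. Rps29, with near copies at all 7 of its CpGs, had 17.2 ± 6.36% in double mutant MEP and 17.5 ± 4.40% in wild type MEP. Rps19, with near copies at 7 of 12, had 19.8 ± 0.799% in double mutant MEP and 20.2 ± 5.0% in wild type MEP. The spread between libraries exceeded the difference between the groups at both of these genes. Rpl35a, with 3.61 ± 0.715% in double mutant MEP and 2.85 ± 0.845% in wild type MEP, and Rps26, with 1.21 ± 1.80% in double mutant MEP and 0 in wild type MEP, lay between. Rps28 was measured at 1 CpG, at 0 in all double mutant and wild type MEP libraries and at 13.8% in the first knockout MEP library.

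Against knockout MEP, 7 of 62 ribosomal promoters passed (23.3% of all promoters), and against Idh2 mutant MEP 5 of 62 (19.3%). These comparisons share the double mutant libraries with the one above. Against knockout MEP 5 were higher and 2 lower, where 20.4% of all promoters were higher and 2.91% lower, and against Idh2 mutant MEP 3 were higher and 2 lower, where 16.2% and 3.02% were. Besides Rpl26 and Rpl38, double mutant MEP was higher than knockout MEP at Rps20 (58.5 ± 14.0% against 36.8 ± 3.92%, adjusted p = 0.00861), Rps10 (16.7 ± 1.21% against 9.38 ± 3.98%, adjusted p = 0.0222) and Rpl15 (5.34 ± 2.47% against 0.490 ± 0.462%, adjusted p = 0.0124; SD, n = 3 and 2, quasi-binomial). Rps23 and Rpl24 were lower, with 0 methylated reads in all 3 double mutant libraries, against 3.12% and 0.955% at Rps23 and 2.75% and 0% at Rpl24 in knockout MEP (adjusted p = 0.0465 and 0.0214, quasi-binomial). For Rpl24 the whole difference was thus 1 knockout library, and without it the call was lost. Against Idh2 mutant MEP, Rpl19 was higher by 5.02 points (adjusted p = 0.0482), and Rpl11 and Rpl6 were lower by -4.81 (adjusted p = 0.00488) and -5.35 points (adjusted p = 0.0335, all quasi-binomial). Rpl11, which with Rpl5 binds Mdm2 when ribosome assembly fails, had 1.34%, 1.62% and 0.891% in double mutant MEP, against 9.58% and 2.61% in Idh2 mutant MEP.

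Without the near-copy CpGs, 1, 3 and 3 ribosomal promoters passed in double mutant against wild type, knockout and Idh2 mutant MEP. Rpl26 passed in all 3 (7.38, 6.99 and 6.65 points). Rpl24 (adjusted p = 0.00958), Rpl11 (0.0115) and Rpl19 (0.0481) passed where they had before, and Rpl15, Rps10, Rpl6, Rpl38 and Rpl35 did not pass. The Rpl15 call had rested on the near-copy CpG 503 bp past its first start, at 34.4%, 38.9% and 48.4% in double mutant MEP, 2.86% and 11.1% in knockout MEP, and 33.3% and 38.9% in wild type MEP. Its plus strand had 0 of 42 methylated reads in double mutant MEP, and its minus strand 33 of 39.

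Of these calls, those of Rpl26 alone were kept with each library left out in turn. Without the first knockout MEP library, all 6 others against knockout MEP were lost. Rpl24 and Rps23 were also lost without any 1 of the double mutant libraries, Rps10 without the second, and Rps20 and Rpl15 without the third. Against Idh2 mutant MEP, Rpl11 was lost without the first Idh2 mutant library, Rpl38 and Rpl19 without the second, and Rpl6 without either. Rpl19 and Rpl6 were also lost without the first or without the third double mutant library.

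In knockout against wild type MEP 0 of 62 ribosomal promoters passed, where 1.19% of all promoters did, and 14 (22.6%) had an unadjusted p under 0.05, against 15.9% of all promoters. In Idh2 mutant against wild type MEP 0 passed (0.570% of all), with 5 (8.06%) at an unadjusted p under 0.05, against 9.65% of all. In knockout against wild type GMP 0 passed (0.0665%), with 6 (9.68%) against 7.24%. By limma the count was 0 in all 3. These shares over all promoters give fewer than 1 call in 62. With the compared groups alone the counts were 3 in knockout and 1 in Idh2 mutant against wild type MEP. The count in knockout against wild type MEP also moved with single libraries left out. Shares over all promoters under these alternatives are not given here, so these counts tell nothing of the ribosomal promoters in particular. In knockout MEP the median of the 62 promoters was 1.30%, against 0.368% in wild type MEP, beside floors of 0.636% and 0.452% in the 2 knockout libraries and 0.128% and 0.190% in the wild type ones.

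In Idh2 mutant against wild type GMP, 3 of 62 passed (2.06% of all promoters), all higher in the mutant, where 1.57% of all promoters were higher and 0.494% lower. Rps13 (ENSMUSG00000090862.1), a small subunit protein, had 30.2% and 19% in Idh2 mutant GMP against 1.03% and 5.31% in wild type GMP, a difference of 21.4 points (adjusted p = 0.0142). Rpl6 was higher by 8.12 points (adjusted p = 0.0278) and Rpl13 by 5.09 points (adjusted p = 0.0492, all quasi-binomial). All 3 calls rested on near-copy CpGs and none passed without them. All 3 were also lost without the first Idh2 mutant GMP library, which has the highest floor, and without the first wild type GMP library. At Rps13 these are 3 CpGs at the start of the coding sequence, in capitals, at chr7:123477594-123477623 (mm9, minus strand), each with 8 or 9 near copies.
Rps13 start CpGs: tcatgggtCGcatgcaCGctccCGggtgag
The middle one had 62.8% and 66.7% in Idh2 mutant GMP and 4.55% and 25% in wild type GMP. In MEP it had 16.7%, 22.2% and 9.09% in double mutant, 39.1% and 56.7% in knockout, 59.1% and 43.9% in Idh2 mutant and 23.1% and 35.9% in wild type cells. The near-copy CpG of Rpl13 505 bp past its start split the libraries further, with 0% in all 3 double mutant and all 4 wild type libraries and 11.9 to 44.4% in the 8 knockout and Idh2 mutant ones. By reads summed over listed cytosines, double mutant and wild type libraries are also the deeper ones. Each has 15 cytosines at the largest count the files hold, against 1 to 9 in the others. Depth at the common CpGs did not split the libraries this way. Median reads there were 39, 45 and 42 in double mutant MEP. They were 48 in the first knockout MEP library and 46 in the second Idh2 mutant MEP library. The part of depth in these levels was not tested.

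Between MEP and GMP of the same genotype the quasi-binomial test and limma both called 0 of 62 in wild type, knockout and Idh2 mutant cells. The quasi-binomial test passed 0% of all promoters in each, so these counts tell nothing of the ribosomal promoters in particular. At an unadjusted p under 0.05 there were 0, 6 and 6 (0%, 9.68% and 9.68%), against 1.86%, 5.35% and 9.97% of all promoters. Without the second knockout MEP library 1 ribosomal promoter passed in knockout cells. The effect of the knockout and of the Idh2 mutation was also compared between MEP and GMP by an interaction term. For each, 0 of 62 ribosomal promoters and 0 of all 10532 differed, so the count tells nothing of the ribosomal promoters in particular. By the same term, 1 ribosomal promoter each had an unadjusted p under 0.05, and the share over all promoters at that level was not counted.

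The letters of these promoters were read from the RefSeq table (GRCm38.p6, 250 bases before to 50 after each start). In it 54 genes fit the symbol rule. Rpl32l and Rpl41 are counted among these 54 but are not among the 72 members. The 54 genes had a median of 21 CpGs in these 300 bases, against 8 over all 25748 genes of the table. CCGG, the site at which the libraries are cut, was in 94.4% of the 54 and 56.0% of all genes. On either strand, CCGGAAG, an Ets factor motif that holds the cut site, was in 40.7% of the 54 and 10.1% of all genes. GGGCGG, the GC box, was in 55.6% and 38.6%, AAGATGGC, the core of the YY1 motif, in 9.26% and 3.19%, and TATAAA in 7.41% and 15.7%. The palindrome TCTCGCGAGA, picked after the sequences had been seen as the 10-base palindrome found in the most members (6, against 2 for the next), was in 11.1% and 0.520%. A C at the start followed by 4 pyrimidines was in 24.1% of the 54 and 3.06% of all genes. Rpl32l is among those with TATAAA and among those with this start.

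Of these promoters, 4 are shown over the 120 bases before the start, for genes described above, with CCGGAAG and TCTCGCGAGA in capitals. In GRCm38.p6 they are chr4:86857368-86857487 (minus strand) for Rps6, chr15:5116493-5116612 (plus) for Rpl37, chr11:68901446-68901565 (plus) for Rpl26 and chr11:114668460-114668579 (plus) for Rpl38.
Rps6 promoter: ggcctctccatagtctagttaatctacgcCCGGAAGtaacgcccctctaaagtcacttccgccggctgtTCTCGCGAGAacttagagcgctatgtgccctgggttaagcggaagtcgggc
Rpl37 promoter: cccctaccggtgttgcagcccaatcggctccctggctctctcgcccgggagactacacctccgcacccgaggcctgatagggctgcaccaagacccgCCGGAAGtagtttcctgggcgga
Rpl26 promoter: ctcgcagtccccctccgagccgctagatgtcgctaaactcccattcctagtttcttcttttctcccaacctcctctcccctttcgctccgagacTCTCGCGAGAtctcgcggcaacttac
Rpl38 promoter: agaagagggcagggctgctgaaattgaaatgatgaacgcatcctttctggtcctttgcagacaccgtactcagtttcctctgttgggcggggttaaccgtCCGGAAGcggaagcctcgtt
In the mm9 data, 20 member CpGs in 18 promoters lay inside CCGGAAG on either strand. The 16 single-copy ones averaged 0.362% over all libraries, with none above 0.714%. By group they averaged 0.197% in double mutant, 0.533% in knockout, 0.432% in Idh2 mutant and 0.267% in wild type MEP, values of the size of the floor. Those within 250 bp of a coding start, apart from the one in Rps27l, are themselves floor CpGs. The 4 with a near copy averaged 7.38%, led by the Rpl6 CpG 33 bp past the start at 21.7%. Rps6 has both motifs, and its 2 CpGs inside TCTCGCGAGA averaged 1.31% and 0.133%, the higher value resting on the 14.3% of 1 Idh2 mutant MEP library described above.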

How the data were processed

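Files of 15 libraries were used, 1 per library. BSMAP 2.74 and mm9 are named in the submitters' processing notes. The authors' deposited counts give, per cytosine, its methylated reads and its total, up to a fixed maximum. How duplicates were removed, how reads were trimmed and how well conversion worked is not given in the sources used here. Strands were added, CpGs kept where every library had 10 reads or more, and the level is methylated over all reads. Sites are set by GENCODE vM1 on mm9, and distances run from the first or the nearest start of a protein-coding transcript. The members and lists were chosen with earlier results of these data known.

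Promoters with at least 3 CpGs were tested with 1 quasi-binomial logistic fit over the 7 groups (8 residual degrees of freedom, dispersion squeezed to 3.52 with 12.7 prior degrees of freedom, not under 1), F tests and Benjamini-Hochberg adjustment over 10532 promoters. A promoter passed at an adjusted p under 0.05. Sums over members were given without a test. Named genes were members past the test, the 5 highest and 5 lowest, the l-suffix paralogs and anaemia-linked members. Tested on simulated data for double mutant against wild type MEP over 10532 promoters, the model recovered 74.63%, 85.07% and 100% of changes of 5, 10 and 20 points, and 12.56% of its calls were false. Alternatives were a minimum of 20 reads, 500 bp, coding starts only, fewer CpGs, the compared groups alone, a replicate block, limma, each library left out and, added after seeing the data, near-copy CpGs left out and the floor CpGs alone. Software was BLAST+ 2.17.0, limma 3.58.1 in R 4.3.3, and pandas 2.3.3, numpy 2.4.6, matplotlib 3.10.9 and scipy 1.17.1 in Python 3.11.15. Sequences are from mm9 and RefSeq (GRCm38.p6). Some items are not reported here.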

Additional observations from a re-analysis of the deposited data

How the results depend on the processing

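Of 228 values for single promoters under alternatives, 146 kept direction and side of the threshold, 78 lost the call and 4 reversed. Of 246 for counts and level differences, 196 stayed near the main value and 50 moved. The causes were not tested, except that leaving out near-copy CpGs leaves fewer CpGs.

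Counts of ribosomal promoters past the test moved as follows. Shares over all promoters under these alternatives are not given, here or above, so the counts describe stability alone. At 20 reads they were 1 in knockout against wild type MEP and 0 in Idh2 mutant against wild type GMP. At 500 bp and with coding starts only, double mutant against Idh2 mutant MEP gave 3 each, and coding starts only gave 1 in knockout against wild type MEP. Without near-copy CpGs the counts were 1, 3 and 3 in double mutant against wild type, knockout and Idh2 mutant MEP, and 0 in Idh2 mutant against wild type GMP. With the compared groups alone they were 3 in knockout and 1 in Idh2 mutant against wild type MEP, and 6 in Idh2 mutant against wild type GMP. limma gave 1, 3 and 2 for double mutant against wild type, knockout and Idh2 mutant MEP, and 0 for Idh2 mutant against wild type GMP.

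The labels do not say that replicate numbers mark a shared animal, and deviations of same-numbered libraries correlated at -0.0258 to 0.0957 except for Idh2 mutant MEP and GMP (0.269). With a replicate block, double mutant against wild type, knockout and Idh2 mutant MEP gave 4, 3 and 3, and knockout against wild type MEP 2.

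Leaving out 1 library at a time gave 1 to 4 in double mutant against wild type MEP, 3 to 12 against knockout MEP and 2 to 6 against Idh2 mutant MEP. It gave 0 to 7 in knockout against wild type MEP, 0 to 4 in Idh2 mutant against wild type GMP, 0 to 1 in knockout MEP against GMP, and 0 to 0 elsewhere.

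Level differences in points also moved. On the floor CpGs they were -0.321 for double mutant against knockout MEP, -0.122 against Idh2 mutant MEP, 0.385 for knockout and 0.186 for Idh2 mutant against wild type MEP, 0.506 for Idh2 mutant against wild type GMP and -0.375 for Idh2 mutant MEP against GMP. At 20 reads they were 0.0430 for double mutant against Idh2 mutant MEP, 0.848 for Idh2 mutant against wild type GMP and 0.163 for wild type MEP against GMP. With CpGs weighted equally these were -0.0656, 0.968 and 0.120, and Idh2 mutant against wild type MEP gave 0.159. Equal weights also changed the sign for double mutant against knockout MEP (-0.112 points, against 0.817 by reads), knockout against wild type MEP (0.205 against -0.708), knockout against wild type GMP (0.147 against -0.514) and knockout MEP against GMP (0.178 against -0.404). For Idh2 mutant against wild type GMP, 500 bp gave 0.631, coding starts -0.118 and leaving out l-suffix paralogs 0.536, which for wild type MEP against GMP gave -0.00108.

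Reversals were Rpl35 in double mutant against wild type MEP at 500 bp (adjusted p = 0.802, 0.118 points), Rpl19 against Idh2 mutant MEP at 500 bp (adjusted p = 0.992, -0.0911 points) and, without near-copy CpGs, Rpl38 against wild type (adjusted p = 0.714) and Idh2 mutant MEP (adjusted p = 0.464), all quasi-binomial. Read depth limits single CpGs, where 10 reads make 1 read worth 10 points, and with 2 libraries in a group 1 library can decide a call.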
